A study of Mus musculus with 8 samples.

Results

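Ccr7, Klf2 and S1pr1 are genes of lymph node homing and egress, and their Foxp3 binding sites are described here across all 8 libraries of the study. Of the 5521 sites that the authors listed, 5 were given to these 3 genes, 2 to Ccr7, 1 to Klf2 and 2 to S1pr1. A site whose centre fell inside a protein-coding gene, or failing that within 5 kb of one, was given to that gene, the shortest where several applied. All others went to the nearest gene end within 100 kb, and all 5 sites were placed by this last step.

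CCR7 is the chemokine receptor that guides T cells toward CCL19 and CCL21 into lymph nodes and their T cell zones. S1PR1 senses sphingosine-1-phosphate, which is abundant in blood and lymph, and lets T cells leave the node. KLF2 is a zinc finger transcription factor of quiescent T cells that drives transcription of S1pr1. Resting Treg cells, like naive T cells, use these molecules to recirculate through lymphoid organs, while activated Treg cells lower them and enter other tissues.

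Binding was measured by CUT&Tag, in which an antibody brings a Tn5 transposase to its target so that nearby DNA is cut and tagged. The cells were Treg cells (CD4+hCD2+GFP-), taken by fresh sorting from spleen and lymph nodes of mice on the C57BL6/J background. The mice of every group carried a GFP-tagged Foxp3 allele (Foxp3-IRES-GFP) beside an hCD2-tagged one, which was either WT (Foxp3WT-IRES-hCD2) or R397W (Foxp3R397W-IRES-hCD2), a missense change in the DNA-binding forkhead domain. The gate kept cells positive for the hCD2 tag and negative for GFP. Each genotype had 2 libraries with anti-Foxp3 and 2 with normal rabbit IgG as background. The labels give no age or sex and do not say whether replicates 1 and 2 came from separate mice, so p-values here measure only the spread between these libraries, which may be technical.

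Each library had between 111274 and 394196 reads within the listed sites, and 3.13% to 66.8% of sites had no reads in a given library. At the 5 sites, 14 of the 40 values were 0. Of these, 11 fell in the 20 values from replicates numbered 2 and 3 in the 20 from replicates numbered 1. Over all sites, 44.4% to 66.8% had no reads in libraries numbered 2, and 3.13% to 27.0% in those numbered 1. The number of a library thus moved with the signal over the whole list, not at these 5 sites in particular. The site list is the same for all 8 libraries and the files hold no expression values, so the labelled cell type could not be checked against its markers.

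The 5 sites lay 11556 to 78480 bp from the nearer end of their gene, and none was inside a gene body or within 5 kb of one. Over all sites with a gene, 67.3% were inside a gene body, 11.3% within 5 kb and 21.4% farther away. By the authors' classes, 2 of the 5 were common, 3 were cTreg-specific and 0 were eTreg-specific, against 69.7%, 13.2% and 17.2% of all 5521 sites. Of the 2760 genes with a site, 17.9% had, like these 3, no site within 5 kb. The Ccr7 sites were both common, and the Klf2 and S1pr1 sites were all cTreg-specific. Because 5 sites are few and were chosen by gene, these shares describe them and carry no test.

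Both Ccr7 sites lay on the side of lower coordinates of the gene (mm10, chromosome 11, 99144199 to 99155077), in the gap between Tns4 and Ccr7. The proximal one, at 99132443 to 99132843, was 11556 bp from Ccr7, and the distal one, at 99130728 to 99131128, was 13271 bp away. Their centres were 1715 bp apart, and the next gene, Tns4, was 43337 bp from the proximal site and 41622 bp from the distal one. Within 100 kb of Ccr7 the files listed 3 further sites, all common and all given to Smarce1, which encodes a subunit of the SWI/SNF chromatin remodeller.

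The Klf2 site (chromosome 8, 72303579 to 72303979) lay 15283 bp from the gene (72319062 to 72321654), with Eps15l1 as the next gene at 37211 bp. Klf2 is on the plus strand, which places the site upstream, 14833 bp before the promoter window that starts at 72318812. The nearest other listed site was also cTreg-specific. It lay 26358 bp away, 41641 bp from Klf2, and was given to Ap1m1, whose end was nearer. Another 4 sites within 100 kb lay inside Eps15l1, 2 of them cTreg-specific and 2 common.

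S1pr1 (chromosome 3, 115710433 to 115715055) was alone in its neighbourhood, with 0 other protein-coding genes within 100 kb. Its proximal site (115689338 to 115689738) lay 20895 bp from the gene on the side of lower coordinates. The distal site (115793335 to 115793735) lay 78480 bp away on the other side, and there the next gene, Dph5, was not much farther, at 94581 bp. The assignment to S1pr1 therefore rests on a difference of distance for the distal site, and on isolation for the proximal one.

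**Figure D1:**
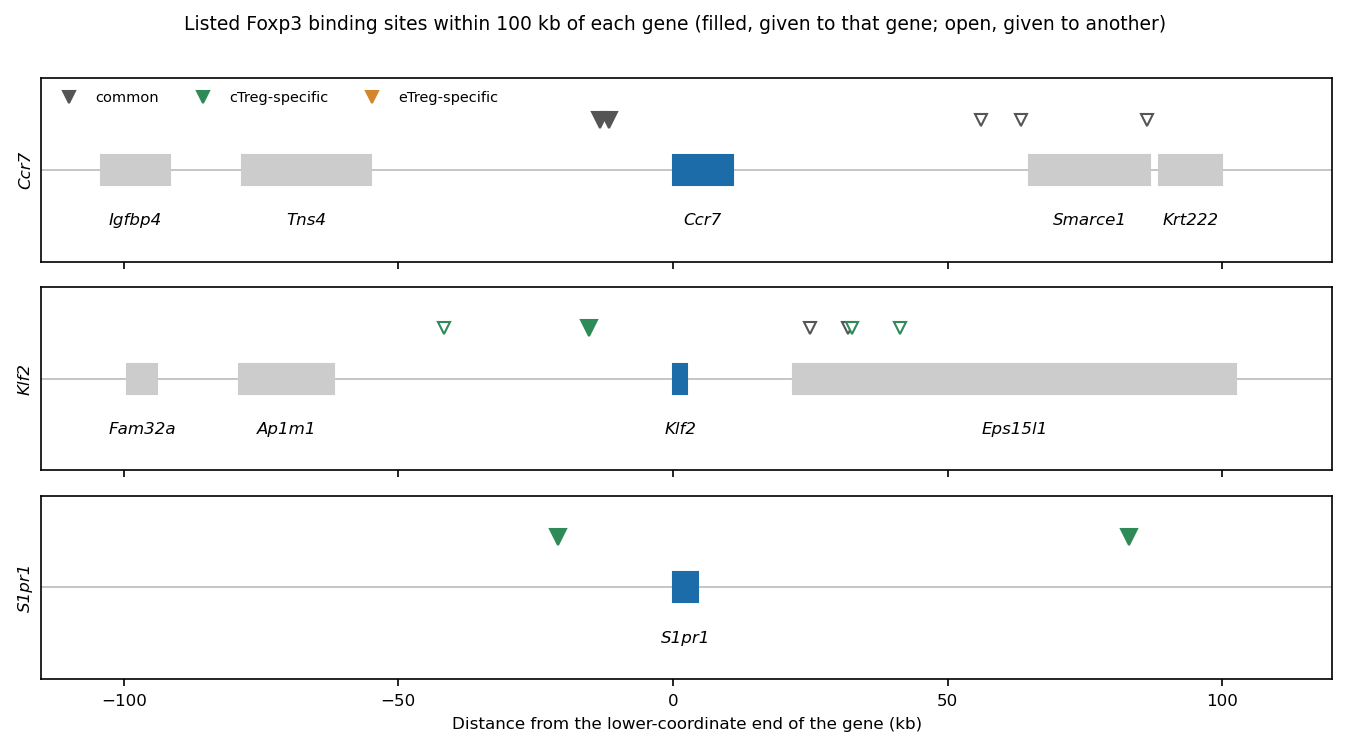
Map of the listed Foxp3 sites within 100 kb of Ccr7, Klf2 and S1pr1, with the distance from the lower-coordinate end of each gene in kb on the x axis. Blue boxes are the 3 genes and grey boxes their neighbours, triangles are sites coloured by class, and filled triangles are the 5 sites given to the 3 genes, none of which touches a gene body.

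The proximal Ccr7 site had the highest mean of the 5 in each of the 4 groups, though not the highest value in every library, and was the only one with reads in all 8 libraries, as were 21.2% of common sites. On the deposited scale of normalised read counts, WT Foxp3 read 169.8 in replicate 1 and 156 in replicate 2, and R397W Foxp3 read 44.6 and 101 in the same order. With IgG they were 69.4 and 119 in WT, and 52.1 and 105 in R397W. Both WT Foxp3 libraries thus lay above all the other 6 libraries, while the R397W Foxp3 and the IgG libraries overlapped one another. By group means the order was WT Foxp3 (163 ± 9.43, SD, n = 2), WT IgG (94.2 ± 35.0), R397W IgG (78.5 ± 37.4) and R397W Foxp3 (72.9 ± 40.0). The last 3 groups were within one another's spread. The WT Foxp3 mean was higher than those of 95.3% of common sites and the WT IgG mean higher than those of 88.9%, so background was high here too.

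R397W minus WT in the Foxp3 libraries was −1.26 (SE 0.73) in log2(value + 1) at the proximal Ccr7 site. It did not pass (limma, Benjamini-Hochberg adjusted p = 1 over 5521 sites). The same difference in IgG was −0.29 (SE 1.14). Of all 3847 common sites, 32.1% had a lower R397W minus WT difference, with a median of −0.33. Among the 815 with reads in all 8 libraries it was 11.8%, with a median of −0.02. The separation of genotypes depended on the scale. As reads per 100000 in the listed sites, which leaves out the deposited factors, the site had 50.0 and 85.2 in WT Foxp3 and 15.3 and 55.8 in R397W Foxp3, which overlap, and 35.3 and 82.9 in WT IgG.

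Foxp3 stood above IgG in both WT pairs of the same number at the proximal Ccr7 site, with ratios of 2.45 and 1.32, and just below it in both R397W pairs, with ratios of 0.857 and 0.963. The labels do not tie Foxp3 and IgG libraries of one number together, and R397W Foxp3 replicate 2 (101) lay above R397W IgG replicate 1 (52.1), so the R397W sign depends on this pairing. This pattern was seen at 4.31% of all sites, and the opposite one at 1.47%. The size was small against the error. The fitted change of Foxp3 over IgG from WT to R397W was −0.97 (SE 1.61, limma adjusted p = 1.00), close to the median over all sites, −1.02, which itself ranged from −2.23 to 0 with single libraries left out. With reads per 100000 the signs stayed the same in all 4 pairs. The 95% exact (Clopper-Pearson) intervals of Foxp3 and IgG overlapped in each of them. In WT replicate 1 they met only at their ends, with 50.0 (42.1 to 59.1) against 35.3 (28.8 to 42.7). In R397W replicate 1 the values were 15.3 (8.90 to 24.5) against 20.7 (13.1 to 31.0). Overlap of intervals is not a test of a difference. These intervals cover counting error only.

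The distal Ccr7 site was weak, with little IgG signal. WT Foxp3 read 29.1 and 1.40, and R397W Foxp3 read 49.9 and 8.38. The IgG libraries read 1.32 and 0 for WT, and 6.79 and 0 for R397W. Foxp3 exceeded IgG in all 4 same-numbered pairs, as it did at 6.29% of sites, although WT Foxp3 replicate 2 rested on 3 reads. Counted as reads per 100000, the 95% exact intervals were apart in 3 pairs. These were WT replicate 1 (8.58, 5.50 to 12.8, against 0.672, 0.0814 to 2.43), R397W replicate 1 (17.1, 10.3 to 26.7, against 2.69, 0.556 to 7.87) and R397W replicate 2 (4.62, 2.46 to 7.90, against 0 with an upper bound of 1.43). The fitted Foxp3 minus IgG difference was 2.48 in WT and 2.97 in R397W (SE 3.16 for each), and neither passed (limma adjusted p = 0.991 and 1). With single libraries left out they ranged from 0.65 to 4.30 and from 1.49 to 4.45.

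WT and R397W overlapped at the distal Ccr7 site. R397W minus WT was 1.36 (SE 2.88) in the Foxp3 libraries (limma adjusted p = 1), and leaving out WT Foxp3 replicate 2 turned it to −0.46. Although 1715 bp apart, the 2 Ccr7 sites did not share a fixed proportion of reads. Of their joint reads, the distal site held 14.6% in WT Foxp3 replicate 1 and 0.885% in replicate 2, and for R397W Foxp3 the shares were 52.8% and 7.65%. With IgG they were 1.87% and 0% for WT, and 11.5% and 0% for R397W. The share was higher in replicate 1 than in replicate 2 in all 4 groups.

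**Figure D2:**
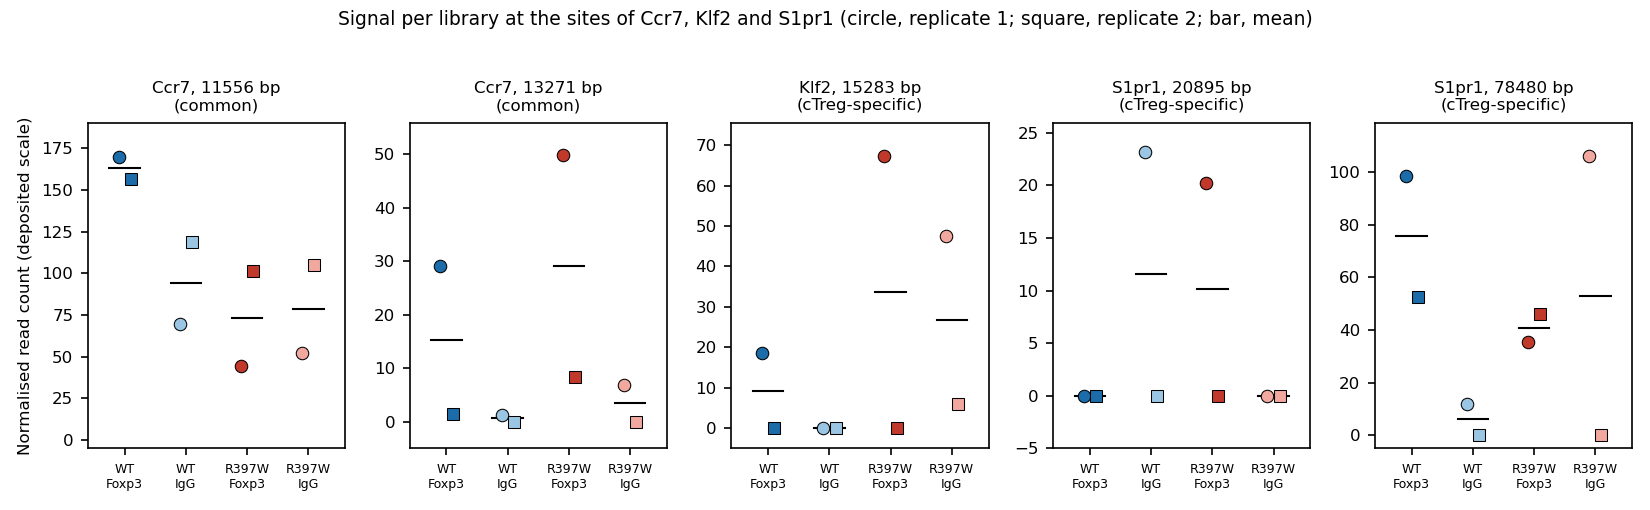
Normalised read count (deposited scale, y axis, one range per panel) at each of the 5 sites in WT and R397W cells with anti-Foxp3 or IgG, circles for replicate 1, squares for replicate 2 and bars for the mean of 2 libraries. On this scale WT Foxp3 stands apart at the proximal Ccr7 site, with 169.8 and 156 against at most 119 elsewhere, whereas most zeros are squares. As reads per 100000 in the listed sites it does not, with 50.0 and 85.2 against 82.9 in WT IgG replicate 2.

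The Klf2 site had reads in 4 of 8 libraries. WT Foxp3 read 18.5 and 0, and R397W Foxp3 read 67.4 and 0. The IgG libraries read 0 and 0 for WT, and 47.6 and 5.87 for R397W. The signal was thus higher in R397W than in WT replicate 1 with anti-Foxp3, where 40 and 22 reads were counted, and neither Foxp3 replicate 2 had any. As reads per 100000, WT Foxp3 replicate 1 had 7.86 (95% exact interval 4.93 to 11.9) against 0 (upper bound 1.24) in WT IgG replicate 1, so the counting intervals were apart. For R397W replicate 2 they were apart the other way, with 0 (upper bound 1.31) in Foxp3 against 3.48 (1.59 to 6.60) in IgG. Those of R397W replicate 1 overlapped, at 35.9 (25.7 to 48.9) against 19.8 (12.4 to 29.9), and both WT replicate 2 libraries were at 0. A count of 0 allows up to 3 reads, which equals a value of 1.55 in WT Foxp3 replicate 2 and 2.13 in R397W Foxp3 replicate 2. Both R397W IgG libraries lay above both WT IgG libraries, as at 11.3% of all sites (5.51% had the opposite order). For that difference the unadjusted p was 0.181 with limma, 0.130 with edgeR and 0.0438 with DESeq2 (DESeq2 adjusted p = 1). Of 5521 sites, DESeq2 put 175 higher and 43 lower at unadjusted p under 0.05. Against WT IgG, where both libraries were at 0, no fold is given.

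At the Klf2 site the groups' means were 33.7 ± 47.7 in R397W Foxp3, 26.7 ± 29.5 in R397W IgG and 9.26 ± 13.1 in WT Foxp3 (SD, n = 2), each with an SD above its mean, so their order is not beyond the spread. R397W minus WT in Foxp3 was 0.90 (SE 3.92, limma adjusted p = 1) on the log2 scale. It became −1.24 when WT Foxp3 replicate 2 was left out and −2.14 when R397W Foxp3 replicate 1 was. Foxp3 minus IgG in R397W was −1.14 (SE 3.13, limma adjusted p = 1).

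The distal S1pr1 site was the strongest of the cTreg-specific 3 by the WT Foxp3 mean. WT Foxp3 read 98.5 and 52.6, and R397W Foxp3 read 35.4 and 46.1. The IgG libraries read 12.01 and 0 for WT, and 106 and 0 for R397W. Both WT Foxp3 libraries lay above both R397W Foxp3 and both WT IgG libraries, while R397W IgG spanned the whole range. The group means were 75.5 ± 32.5 in WT Foxp3, 53.0 ± 74.9 in R397W IgG, 40.7 ± 7.57 in R397W Foxp3 and 6.003 ± 8.49 in WT IgG (SD, n = 2). The WT Foxp3 mean exceeded that of 90.8% of cTreg-specific sites.

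In WT the excess of Foxp3 over IgG at the distal S1pr1 site was larger than counting error in both replicates. Reads per 100000 were 41.8 (95% exact interval 34.6 to 50.1) against 4.70 (2.57 to 7.89) in replicate 1, and 25.9 (21.1 to 31.4) against 0 (upper bound 1.28) in replicate 2. On the deposited scale the replicate 1 ratio was 8.20. The fitted difference was 4.34 (SE 2.85), higher than at 96.8% of cTreg-specific sites, and did not pass (limma adjusted p = 0.991). It ranged from 2.49 without WT IgG replicate 2 to 6.19 without WT IgG replicate 1. In R397W the 2 pairs went opposite ways, with Foxp3 below IgG in replicate 1 (18.9, 11.7 to 28.8, against 44.0, 32.6 to 58.2) and above it in replicate 2 (23.1, 17.8 to 29.5, against 0, upper bound 1.43).

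R397W minus WT in the Foxp3 libraries at the distal S1pr1 site was −0.82 (SE 0.98, limma adjusted p = 1), and 38.1% of cTreg-specific sites had a lower value. The genotypes stayed apart as reads per 100000, with 41.8 and 25.9 in WT and 18.9 and 23.1 in R397W, but by less than counting error for the replicates numbered 2. The change of Foxp3 over IgG from WT to R397W was −2.34 (SE 4.03, limma adjusted p = 1.00). It turned to 1.03 without R397W IgG replicate 1.

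The proximal S1pr1 site, by contrast, had reads in only 2 of 8 libraries. These were R397W Foxp3 replicate 1, at 20.2 from 12 reads, and WT IgG replicate 1, at 23.2 from 27 reads. Both WT Foxp3 libraries were at 0, where 3 reads would equal 2.53 and 1.55. At this depth no Foxp3 signal above background was detectable at the site in WT cells, and no fold is given.

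**Figure D3:**
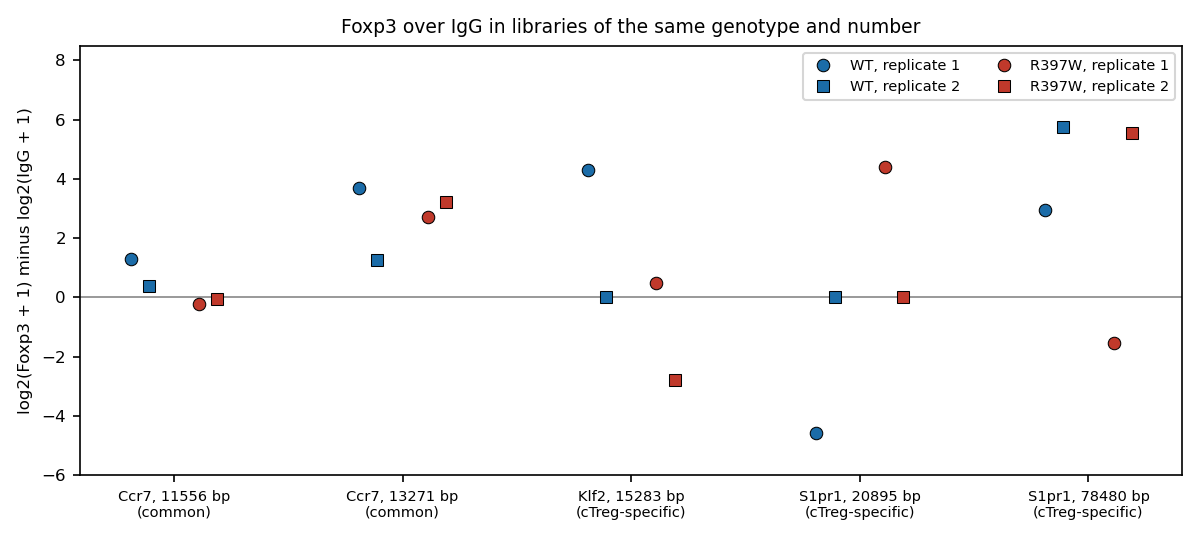
Difference between Foxp3 and IgG, in log2(value + 1), for libraries of the same genotype and replicate number at each of the 5 sites (blue, WT; red, R397W). All 4 points lie above 0 only at the distal Ccr7 site (13271 bp), and the WT and R397W pairs take opposite signs at the proximal one (11556 bp).

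Across the 5 sites, 0 were called in any of the 5 comparisons made with limma, and in these fits 0 had an unadjusted p under 0.05. For R397W against WT in the Foxp3 libraries, 0% of all 5521 sites were called and 0.326% (18 sites) had an unadjusted p under 0.05, and edgeR and DESeq2 on recovered reads called 0 as well. The share called was 0.0725% (4 sites) for Foxp3 over IgG in WT, 0% in R397W (81 sites at unadjusted p under 0.05, and 0 called by edgeR and by DESeq2) and 0.0362% (2 sites) for R397W against WT in IgG. At unadjusted p under 0.05 these shares were 2.57%, 1.47% and 2.25%. For the change of Foxp3 over IgG from WT to R397W, 0% were called, with 91 sites (1.65%) at unadjusted p under 0.05 and 0 called by edgeR and by DESeq2.

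By overlap of libraries, R397W Foxp3 lay below WT Foxp3 at 2 of the 5 sites, the proximal Ccr7 and the distal S1pr1 site, against 12.6% of all sites. It lay above at 0 of 5 (6.43% of all sites). WT Foxp3 lay above WT IgG at 3 of 5, the 2 Ccr7 sites and the distal S1pr1 site, against 19.5% of all sites, and R397W Foxp3 above R397W IgG at 1 of 5, the distal Ccr7 site, against 10.4%. Foxp3 lay below IgG at 0 of 5 in either genotype (4.84% of all sites in WT and 7.84% in R397W). As reads per 100000, the proximal Ccr7 site dropped out of both WT counts, which became 1 of 5 (12.6% of all sites on that scale) and 2 of 5 (16.6%). The median R397W minus WT difference over the 5 sites was 0.90, against −0.39 over all sites, and it was the Klf2 value. This median counts the proximal S1pr1 site, where both WT Foxp3 libraries were at 0 and no fold is given. Removing the 25% of sites with the lowest mean drops that site, and the median of the other 4 was then 0.04, against −0.30 over all sites kept. With single Foxp3 libraries left out the median over all 5 ranged from −1.24 (WT replicate 2 left out) to 2.58 (R397W replicate 2 left out).

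Likeness of profile was measured as Pearson's r of log2(value + 1) over the 8 libraries, against sites of the same class with reads in every library and a gene within 100 kb other than the one compared. For the proximal Ccr7 site, the closest of 799 candidates were at Pofut1 (r = 0.85), Ifi211 (r = 0.81) and Ndufv2 (r = 0.78). For the Klf2 site, the closest of 55 were at Rasgrp1 (r = 0.87), Irf2bpl (r = 0.73) and Ubac2 (r = 0.65). For the distal S1pr1 site they were at 1110032F04Rik (r = 0.84), Coro1c (r = 0.76) and Ripor2 (r = 0.75). These values are descriptions, since the sites compared share the same libraries, depth and scale factors.

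Other migration genes were taken from 5 lists of 51 genes, of which 23 had 62 sites, 38 common, 12 cTreg-specific and 12 eTreg-specific. Of these sites 32 were inside gene bodies and 22 beyond 5 kb, whereas all sites of Ccr7, Klf2 and S1pr1 were beyond it. None of the 62 was called in the 5 comparisons. R397W minus WT in Foxp3 was below 0 at 37 and above at 22, with a median of −0.46 against −0.39 over all sites. The latter ranged from −1.79 (R397W replicate 1 left out) to 0.43 (R397W replicate 2 left out), so its sign rests on single Foxp3 libraries. Foxp3 minus IgG was above 0 at 49 of 62 in WT, with a median of 1.62 (1.27 over all sites, and 0 to 2.68 with single libraries left out). In R397W it was above 0 at 28 and below at 29, with a median of 0 (0.05 over all sites, and −0.83 to 1.32 with single libraries left out). These counts by sign were not set against the share over all sites, so they are no result about migration genes.

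Among lymph node entry genes, 5 of 8 had sites. The strongest site of that list in WT, common and 19628 bp from Cxcr4, the CXCL12 receptor gene, had 399 and 91.3 in WT Foxp3 and 142 and 78.0 in R397W Foxp3. With IgG it had 143 and 21.9 in WT and 113 and 26.1 in R397W, which overlapped Foxp3 in each genotype. The 4 egress and sphingosine-1-phosphate genes with sites, of 10, had 9 sites that were all common, 5 of them at Cd69, whose product removes S1PR1 from the cell surface. Here the strongest site was inside S1pr4, a second sphingosine-1-phosphate receptor gene, with 166 and 129 in WT Foxp3 and 189 and 38.0 in R397W Foxp3. Its IgG values were 144 and 102 in WT and 92.8 and 170 in R397W, so background was high and overlapped Foxp3 in both genotypes.

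KLF and FOXO genes with sites numbered 5 of 9. Foxo1, which encodes a factor known to induce Klf2 and Ccr7, had 2 common sites. The strongest of the list, inside Klf13, had 198 and 228 in WT Foxp3 and 147 and 110.2 in R397W Foxp3. R397W lay below WT without overlap, as at 12.6% of all sites (R397W minus WT −0.73, SE 0.54, limma adjusted p = 1). With IgG this site had 81.9 and 0 in WT and 181 and 321 in R397W, so R397W IgG lay above R397W Foxp3. Of 16 tissue homing genes 7 had 20 sites, 6 of them eTreg-specific, a class with 0 sites at Ccr7, Klf2 and S1pr1. The strongest was 12574 bp from Ccr9, the gut-homing receptor gene, with 270.5 and 119 in WT Foxp3 and 171 and 206 in R397W Foxp3. Its IgG values were 80.6 and 0.498 in WT and 102 and 73.2 in R397W. Of 8 genes of CCR7 signalling and ligands, Dock2 (7 sites) and Rac2 (1 site), both of T cell motility, had sites. The strongest, inside Dock2, had 136 and 93.1 in WT Foxp3 and 105 and 5.80 in R397W Foxp3. With IgG it had 41.6 and 34.8 in WT and 102 and 0 in R397W.

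**Figure D4:**
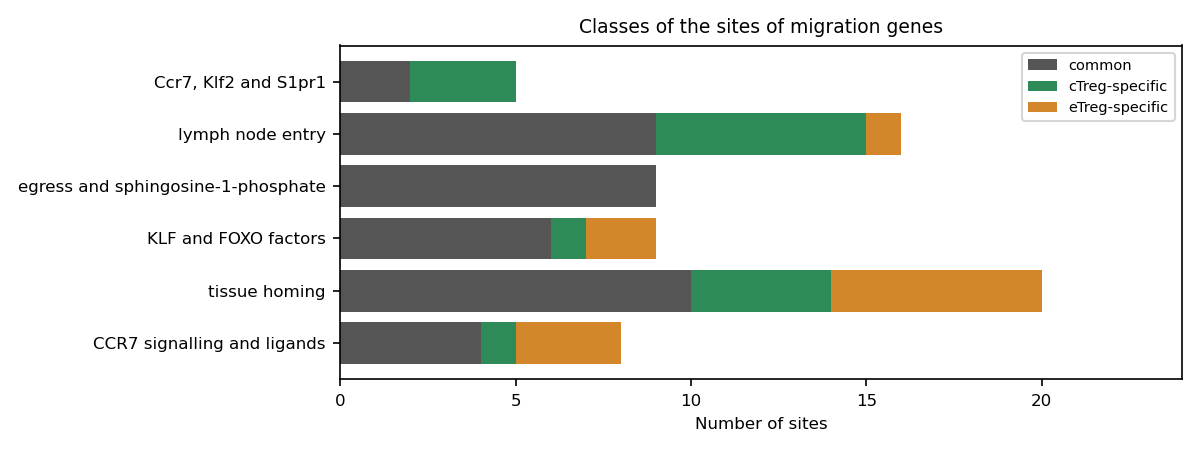
Number of sites (x axis) in each class of the authors for Ccr7, Klf2 and S1pr1 together and for the 5 lists of other migration genes. The 5 sites of the 3 genes and the 9 sites of egress genes include no eTreg-specific site, while tissue homing genes have 6.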

How the data were processed

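The deposited files hold a signal, normalised reads per site, for 8 libraries at 3 classes of Foxp3 sites, 5515 of the 5521 spanning 400 bp. The authors' file names call it spike-in normalised. Per the submitters' processing notes, the builds were mm10 and dm6 and the tools included DiffBind 3.12.0 and Bowtie2 2.5.2, without a stated role. The sources used here do not give how sites were called and classed. Within a library and file, 100% of values were whole multiples of the smallest one above 0 (tolerance 0.01), so whole reads were recovered. Each file has its own factor per library, so levels set across classes are approximate.

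Genes came from RefSeq (GRCm38.p6), whose table gives no strand. The Klf2 promoter window, 250 bases before to 50 after the start, came from the RefSeq promoter table, where 1 of the 3 genes was found. No sequence of the 5 sites was used here. The main test was limma 3.58.1 (R 4.3.3, trended, two-sided) on log2(value + 1), Benjamini-Hochberg adjusted over 5521 sites at 0.05. R397W against WT used the 4 Foxp3 libraries, and the other comparisons all 8, with 1 mean per group. The code was tested on simulated data. Alternatives tried were other pseudocounts (0.5 and 5), dropping the 25% of sites with the lowest mean, equal totals, a replicate block, edgeR 4.0.16 and DESeq2 1.42.0 on recovered reads with the deposited factors, other gene limits, and each library left out in turn. All sites of the 3 genes are named, and per list the site with the highest WT Foxp3 mean. Single genes of the lists that are not named are not reported here. Genes and lists were chosen with earlier results of these data known.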

Additional observations from a re-analysis of the deposited data

Results flagged for a closer look

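At the proximal Ccr7 site, 11556 bp from the gene, Foxp3 lay above IgG in both WT pairs of the same number and below it in both R397W pairs, and this opposite movement in the 2 genotypes is what drew attention to it. In log2(value + 1), the WT pairs gave Foxp3 minus IgG of 1.28 and 0.39, and the R397W pairs gave −0.22 and −0.05. The pairs share only a number, and the R397W sign depends on that pairing. The test of the difference itself, −0.97 (SE 1.61, limma adjusted p = 1.00), did not pass. Across the settings that left out a single library this difference ranged from −1.55 to −0.39.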

How the results depend on the processing

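None of the 5 sites was called under any setting. The 17 fold changes reported for them kept their direction in 113 of 119 settings with all libraries and in 62 of 80 with a library left out. The replicate block and the removal of low sites cannot change a fold change here, so their part of the 113 was fixed in advance. All 6 turns with all libraries came from edgeR or DESeq2. Counts of called sites over all 5521 depended on the libraries. R397W against WT in Foxp3 gave 0, and 0 to 643 with a library left out (643 without WT Foxp3 replicate 2). Foxp3 over IgG in WT gave 4, with 0 under a pseudocount of 5, equal totals, edgeR or DESeq2, 1 with the replicate block, and 0 to 189 with a library left out. R397W against WT in IgG gave 2, with 0 under the same 4 settings, 1 with the replicate block, and 0 to 15 with a library left out. The change of Foxp3 over IgG from WT to R397W gave 0, with 1 under the replicate block and 0 to 182 with a library left out. A gene limit of 10 kb left 0 sites for Ccr7, Klf2 and S1pr1, and the nearest gene end alone left 5.

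The direction of some log2 differences turned. With edgeR and DESeq2 these were the distal Ccr7 site in Foxp3 over IgG between genotypes (0.49, turned to −1.25 and −1.39), the distal S1pr1 site in R397W Foxp3 over IgG (2.00, turned to −0.37 with both) and the Klf2 site in R397W Foxp3 over IgG (−1.14, turned to 0.34 with both). With a library left out, the distal Ccr7 site ranged from −0.46 to 3.19 for R397W against WT in Foxp3, from −0.61 to 2.35 for the same in IgG, and from −1.34 to 2.31 for the difference in Foxp3 over IgG. The proximal Ccr7 site ranged from −0.72 to 0.45 for R397W Foxp3 over IgG and from −0.79 to 0.21 for R397W against WT in IgG. The distal S1pr1 site ranged from −1.37 to 5.37 for R397W Foxp3 over IgG, from −1.85 to 4.89 for R397W against WT in IgG, and from −5.71 to 1.03 for the difference in Foxp3 over IgG. The Klf2 site ranged from −2.14 to 3.95 for R397W against WT in Foxp3 and from −4.19 to 1.91 for R397W Foxp3 over IgG. The cause was not tested.

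The labels give the replicates no shared animal, and the replicate deviations of same-numbered groups correlated over sites at r = 0.038 (WT Foxp3 with WT IgG) to 0.17 (WT with R397W Foxp3). Such an r cannot show a shift between replicates that is the same at all sites, so a low value does not exclude one. With the replicate block no site of the 3 genes was called, and R397W against WT in Foxp3 kept 0 called sites. The Klf2 site had an unadjusted limma p of 0.0267 for R397W against WT in IgG (adjusted p = 0.778). In that fit 228 of 5521 sites were higher and 76 lower at unadjusted p under 0.05. With 2 libraries per group and zeros in 14 of 40 values, replicates of at least some groups differed by more than counting error at every site of the 3 genes. At the proximal Ccr7 site the exact intervals of the 2 replicates were apart in every group. In R397W Foxp3 these were 15.3 (8.90 to 24.5) against 55.8 (47.4 to 65.3) reads per 100000. At the distal Ccr7 site they were apart in both Foxp3 groups and overlapped in both IgG groups. At the distal S1pr1 site they overlapped in R397W Foxp3 only. At Klf2 the libraries with 111274 and 111359 reads in the listed sites had 40 and 22 reads, and that with 394196 had 0. Over all sites, 44.4% to 66.8% had no reads in libraries numbered 2, and 3.13% to 27.0% in those numbered 1. The cause of the zeros was not tested.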
